A study of Mus musculus with 9 samples.

Results

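The genes described here encode the machinery that fuses a vesicle with the plasma membrane and takes it back up. The members are a list of 55 gene symbols, grouped here by role. All were found among the 24170 genes of the series, and 52 of them had enough reads to be tested. Read counts came from 9 libraries of purified primary mouse cultures, in 3 groups of 3 biological replicates. Astrocytes, the star-shaped support cells of the brain, were taken from cortex at postnatal day 1 to 3 and grown for about 21 days until they were confluent. Sensory neurons came from the dorsal root ganglia (DRG), which lie beside the spinal cord, of embryos at embryonic day E13.5, and spent about 2 weeks in culture. Oligodendrocyte progenitor cells (OPC), which give rise to the myelin-forming cells, were purified from cortex at postnatal day 6 to 9 and grown for 6 to 7 days. Astrocytes and OPC came from mice of either sex. The sources used here give neither strain nor genotype. Donor age, time in culture and, against DRG neurons, the tissue of origin changed together with cell type and cannot be told apart from it.

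A synaptic vesicle fuses when a vesicle SNARE (a synaptobrevin or VAMP) zips together with SNAREs of the plasma membrane (a syntaxin and a SNAP-25 type protein). Munc13 and RIM proteins prime and place vesicles at the active zone, complexins and synaptotagmins tie fusion to calcium, and NSF with its SNAP adaptors takes used SNARE complexes apart. Dynamin, endophilin and synaptojanin then retrieve the membrane. Most families also have members that serve constitutive or endosomal traffic in nearly every cell, and OPC are known to receive synapses from neurons, whereas release by OPC is less well understood.

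Assigned reads per library ran from 30710093 to 53594210. Another 26.69 to 30.07% of the reads that fell on annotated transcripts were ambiguous between transcripts and had been set aside, so a gene with more than 1 RefSeq transcript (21 of the 55) is represented only by reads that fall on isoform-specific bases. Levels are given as CPM (reads of a gene relative to the TMM-scaled library total), as mean ± SD over n = 3 libraries or as the values of replicates 1, 2 and 3. They compare a gene between groups, not 1 gene with another of different length. Where groups use different transcripts of a gene, its CPM also depends on the isoform-specific bases of each transcript.

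Most of the machinery was highest in DRG neurons, and OPC stood between DRG neurons and astrocytes for a large share of it. Of the 52 genes tested, 37 were higher and 3 lower in DRG neurons than in OPC, and 12 were not called (edgeR quasi-likelihood test, adjusted p under 0.05). Over all 14848 genes tested, 28.4% were higher and 31.1% lower in that comparison. Between OPC and astrocytes, 24 release genes were higher in OPC, 5 lower and 23 not called, against 26.3% higher and 25.5% lower over all genes. Between DRG neurons and astrocytes, 39 were higher in DRG neurons and 6 lower, against 27.4% and 32.8%. In the same sequence of comparisons, the median log2 differences of the release genes were 2.24, 0.82 and 3.92, and the medians over all genes tested −0.08, 0.09 and −0.13. Summed over the 55 genes, the level was 1950 ± 117 CPM in astrocytes, 2500 ± 315 CPM in OPC and 14900 ± 544 CPM in DRG neurons. In these bulk libraries, fewer cells of a type and less RNA per cell cannot be told apart.

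Taking the 3 comparisons together, 20 genes were called in every step of the order DRG neurons above OPC above astrocytes: Snap25, Stx1a, Nsf, Napa, Syp, Syngr3, Sv2a, Sv2c, Syn1, Cplx1, Rph3a, Syt4, Syt6, Unc13a, Unc13c, Rims1, Rims3, Bsn, Pclo and Dnm1. In 14 others (Stx2, Vamp2, Vamp4, Napb, Syngr1, Sv2b, Syn2, Cplx2, Doc2b, Syt2, Syt3, Syt9, Syt11 and Synj1) DRG neurons were above both glial types and the glial types were not called apart. The share of all genes tested that had either pattern was not counted, so these counts have no reference. Among the 20, Stx1a, Napa, Sv2a, Rph3a, Syt6 and Unc13c each had a step that was lost when a single library was left out. The OPC level of Rims1 rested on 8 reads, and Syn1 reads came from a transcript with 38 assignable bases. The 55 genes also included 3 that could not be tested.

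**Figure D1:**
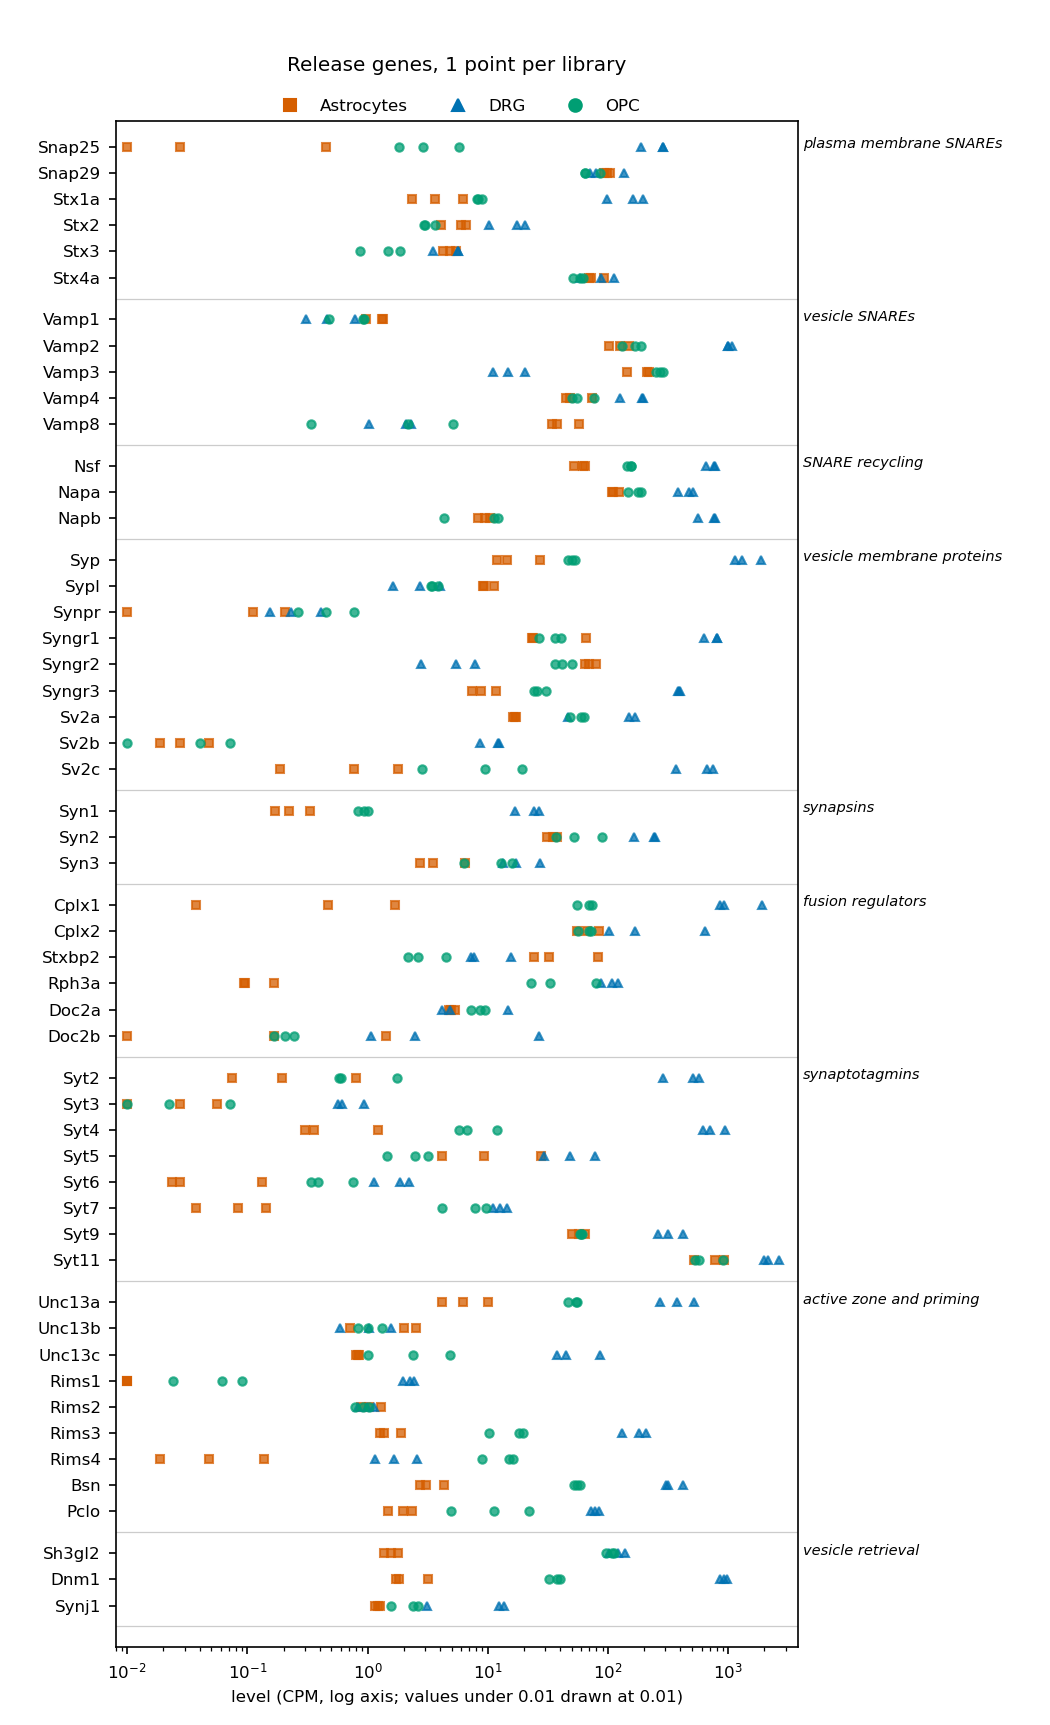
Level of each tested release gene in CPM (horizontal log axis), grouped by role; each point is 1 library, squares for astrocytes, triangles for DRG and circles for OPC. Most rows run from DRG at the right to astrocytes at the left; Vamp3, Syngr2 and Rims4 have OPC to the right of DRG, and Sh3gl2 has OPC beside DRG.

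Markers of each cell type were measured beside these genes. Sensory neuron markers (14 genes) summed to 6970 to 7130 CPM in the DRG libraries and 11.8 to 19.4 CPM in OPC, and OPC markers (10 genes) to 5110 to 6930 CPM in OPC and 13.2 to 29.2 CPM in DRG. In astrocytes the same OPC markers summed to 341, 1200 and 1310 CPM, of which Olig1 gave 223, 977 and 1000 CPM. Markers of differentiating oligodendrocytes (10 genes) summed to 303, 147 and 111 CPM in OPC. They summed to 89.3 to 132 CPM in DRG and 18.4 to 39.2 CPM in astrocytes. OPC replicate 1 stood apart in Gpr17 of the OPC markers (786, 9.44 and 9.84 CPM in OPC). It did so too in Myrf of the differentiation markers (63.8, 5.41 and 6.14 CPM). Astrocyte markers (10 genes) summed to 6430 to 8200 CPM in astrocytes and 828 to 1150 CPM in OPC. In OPC, 15 pan-neuronal markers had a median level of 1.95% of that in DRG neurons. Nefh was at 0.0464% and Stmn2 at 0.048%, while Ina reached 162%, Elavl3 40.4% and Gap43 24.7%. Rbfox3, 1 of the 15, had 0 counts in OPC but also only 0.0677, 0.0842 and 0.0516 CPM in DRG. Its share is therefore poorly measured. Central neuron markers (13 genes) summed to 48.1 to 88.2 CPM in OPC, of which Gad1 gave 61.9, 30.4 and 50.8 CPM. Astrocytes replicate 2 held low levels of neurofilaments (Nefl 10.5, Nefm 10.1 and Nefh 9.66 CPM, against at most 1.11 CPM of Nefh in the other astrocyte libraries). It also held the highest astrocyte values of Snap25, Cplx1, Syt2, Sv2c and Syt4. Microglia markers (12 genes) summed to 2880, 498 and 464 CPM in astrocytes and to 18.8, 60.0 and 215 CPM in OPC, with Ptprc at 0 counts in OPC and DRG. Fibroblast and mural markers (9 genes) summed to 1150 to 9750 CPM in astrocytes and at most 2.82 CPM in OPC. Schwann and satellite cell markers (8 genes) summed to 3100 to 8280 CPM in DRG and 1500 to 2620 CPM in OPC. What part these cells have in the release gene levels was not tested, except where a value is given below.

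OPC held a subset of the machinery at 50% or more of the DRG level. A mean of at least 1 CPM was reached in OPC by 42 of the 55 genes, and 12 of these (28.6%) had at least 50% of the DRG level. Over all 11158 genes with at least 1 CPM in OPC that share was 80.6%. In falling order of the OPC level as a percent of DRG, the 12 were Vamp3 (1750%), Syngr2 (793%), Rims4 (748%), Vamp8 (141%), Sypl (127%), Doc2a (107%), Unc13b (99.4%), Sh3gl2 (87.7%), Snap29 (75.4%), Stx4a (66.6%), Syn3 (60.6%) and Syt7 (56.6%). Just outside stood Sv2a at 47.1%, Rph3a at 42.9% and Napa at 37.5%. Astrocytes also had at least 50% of the DRG level for Vamp8 (2380%), Syngr2 (1330%), Vamp3 (1250%) and Sypl (357%). The same held in astrocytes for Unc13b (166%), Snap29 (103%), Stx4a (91.3%) and Doc2a (63.8%). It did not hold there for Syn3 (21.9%), Rims4 (3.79%), Sh3gl2 (1.32%) and Syt7 (0.691%). Among these 12 are broadly expressed SNAREs (Vamp3, Vamp8, Snap29, Stx4a) and broadly expressed vesicle proteins (Syngr2, Sypl). Rims4, Sh3gl2, Syt7 and Syn3, which are best known from neurons, were also among them, and each of these 4 was called higher in OPC than in astrocytes. The members of the 12 depended on single libraries near the limit: Syt7 left it without OPC replicate 3, Sv2a entered without DRG replicate 1 or DRG replicate 2, and without OPC replicate 2 Sv2a and Rph3a entered while Syn3 and Unc13b left.

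**Figure D2:**
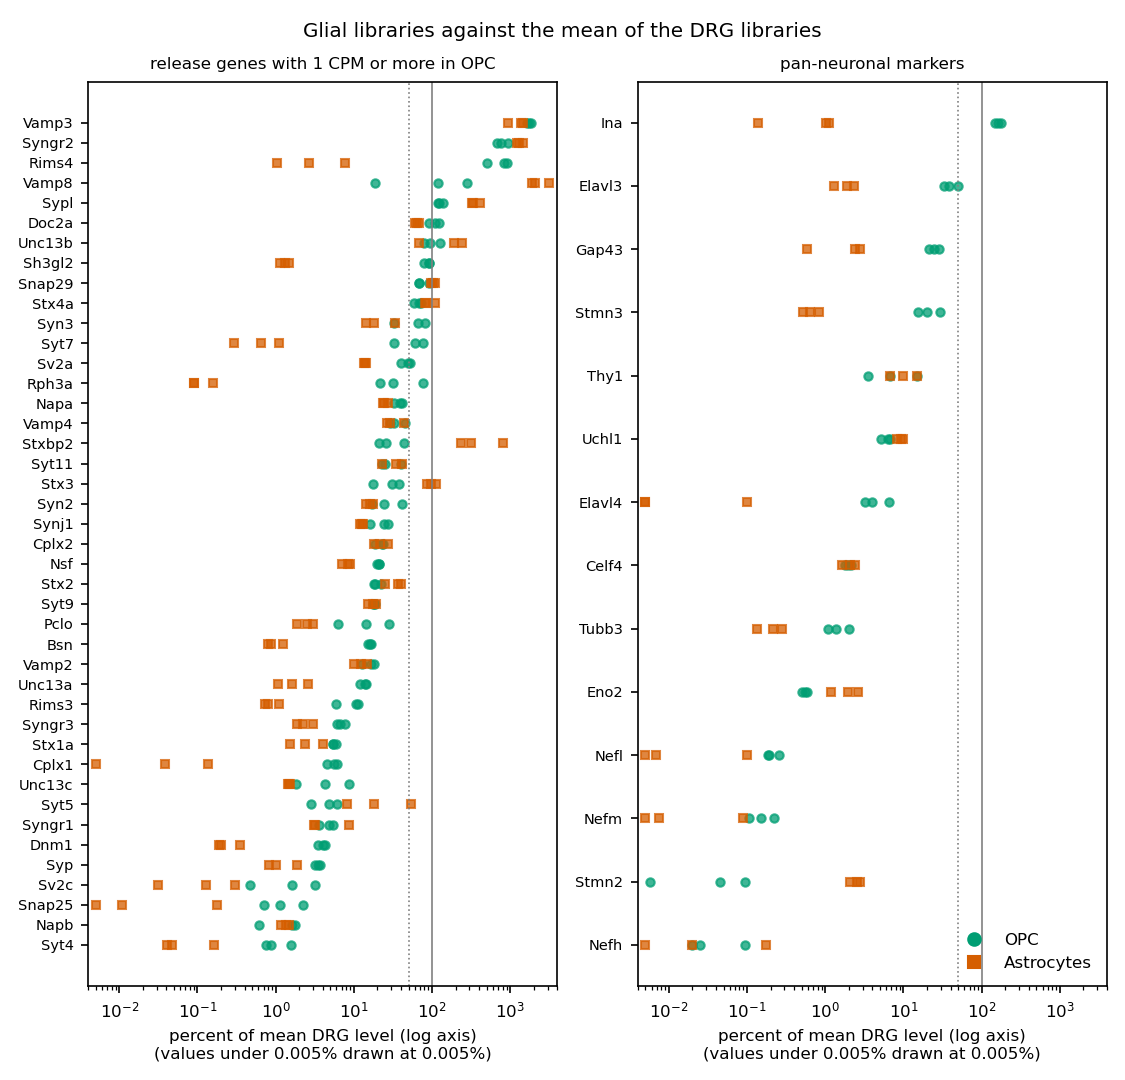
Level in each OPC library (circles) and astrocyte library (squares) as a percent of the mean DRG level (horizontal log axis; solid line 100%, dotted line 50%), for the 42 release genes with 1 CPM or more in OPC (left) and pan-neuronal markers with reads in OPC (right). The mean of the OPC circles reaches the dotted line for the 12 genes at the top left, though single libraries of Vamp8, Syt7 and Syn3 lie below it, and OPC circles lie under 1% for the neurofilaments and Stmn2 at the right. For Snap25, Syngr1 and Pclo the percent also carries the different number of isoform-specific bases in the transcripts that DRG and OPC used.

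Among the SNAREs of the plasma membrane, Snap25 is the neuronal partner of syntaxin at synapses. The gene lies on chromosome 2 (136713439 to 136782428, GRCm38, the assembly of mm10) and carries a pair of alternative versions of exon 5 of 8, which give the protein isoforms SNAP-25a (upstream exon) and SNAP-25b (downstream exon). SNAP-25b is the form that prevails in mature neurons, and SNAP-25a is known from early development and endocrine cells. Both exons are 118 bases long and coding throughout, and they differ at 31 of 118 positions. They are printed because the counts of the transcripts that carry them differed between DRG and OPC, 5′ to 3′ on the plus strand from GENCODE vM21 models on GRCm38, with capitals at the positions that differ. The upstream exon is chr2:136769743-136769860 and the downstream exon chr2:136770057-136770174.
Snap25 upstream exon 5: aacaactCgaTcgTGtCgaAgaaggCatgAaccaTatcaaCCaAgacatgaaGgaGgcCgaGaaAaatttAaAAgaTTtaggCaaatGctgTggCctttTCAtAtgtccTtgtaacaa
Snap25 downstream exon 5: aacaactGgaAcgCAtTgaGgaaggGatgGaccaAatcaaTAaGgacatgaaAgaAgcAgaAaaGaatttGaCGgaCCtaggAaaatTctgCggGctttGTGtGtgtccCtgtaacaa

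Reads assigned to the transcript with the downstream exon numbered 5533, 13504 and 11142 in the DRG libraries, 1, 18 and 3 in OPC, and 0, 18 and 1 in astrocytes. Reads assigned to the transcript with the upstream exon numbered 22, 9 and 15 in DRG, 80, 264 and 118 in OPC, and 0, 1 and 0 in astrocytes. Reads of the downstream transcript were therefore found almost wholly in DRG. Those of the upstream transcript were above the DRG counts in every OPC library. The upstream form made up 0.396%, 0.0666% and 0.134% of both in DRG and 98.8%, 93.6% and 97.5% in OPC. The 95% exact binomial intervals, for counting error only, lay above 90.1% in the OPC libraries and between 0.0305 and 0.599% in the DRG libraries. The bases that only 1 of the transcripts covers differ in number, 118 for the upstream form and 1220 for the downstream form. The downstream model has a longer 3′ end, and only 118 of those 1220 bases lie in exon 5. In the downstream counts, exon 5 use and 3′ end use therefore cannot be told apart. Divided by 118 and 1220 bases, the share of the upstream form was 0.684 to 3.95% in DRG and 99.3 to 99.9% in OPC. The groups did not overlap (exact two-sided permutation test, p = 0.1, adjusted p = 0.14 over 7 such tests), and p = 0.1 is the smallest that 3 against 3 libraries allow.

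When each transcript was fitted by itself with the same edgeR test over 16010 transcripts, the upstream form was 7.67-fold lower in DRG than in OPC (log2 −2.94, SE 0.66, adjusted p = 0.00397). The downstream form was 1560-fold higher in DRG (log2 10.61, SE 1.10, adjusted p = 4.9e-05). Over all transcripts, 28.4% were higher and 30.7% lower in DRG than in OPC, 25.7% higher and 25.2% lower in OPC than in astrocytes, and 27.4% higher and 32.6% lower in DRG than in astrocytes. Against astrocytes the upstream form was higher in OPC (log2 8.29, SE 0.99, adjusted p = 0.000189), a value that rests on 1 astrocyte read and was 10.15 without Astrocytes replicate 2, which held it. The downstream form was not called between OPC and astrocytes (0.154 ± 0.186 against 0.152 ± 0.239 CPM, adjusted p = 0.954), with log2 values from −1.60 without OPC replicate 2 to 3.51 without Astrocytes replicate 2. Of the 22 downstream reads in OPC, 18 were in OPC replicate 2, the OPC library with the most Nefh (5.31 CPM). Without that library the log2 difference between DRG and OPC was 12.31 for the downstream form and −2.42 for the upstream form. Without DRG replicate 1 the latter was −3.53, and its largest adjusted p with any library left out was 0.0197. Summed over both forms, Snap25 was at 188, 284 and 288 CPM in DRG, 1.81, 5.74 and 2.91 in OPC, and 0, 0.451 and 0.0276 in astrocytes. The sum was called higher in DRG than in OPC (log2 6.18, SE 0.83, adjusted p = 0.000228), in the direction of the downstream form and opposite to the upstream one. DRG reads came mostly from the form with 1220 assignable bases and OPC reads mostly from the form with 118. The size of the difference in the sum was not corrected for these lengths and carries their difference as well. The sum in OPC was also above that in astrocytes (log2 4.46, adjusted p = 0.00298), 3.79 without Astrocytes replicate 1 and 7.94 without Astrocytes replicate 2. With only the most abundant transcript that call was lost (log2 0.10, adjusted p = 0.954).

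**Figure D3:**
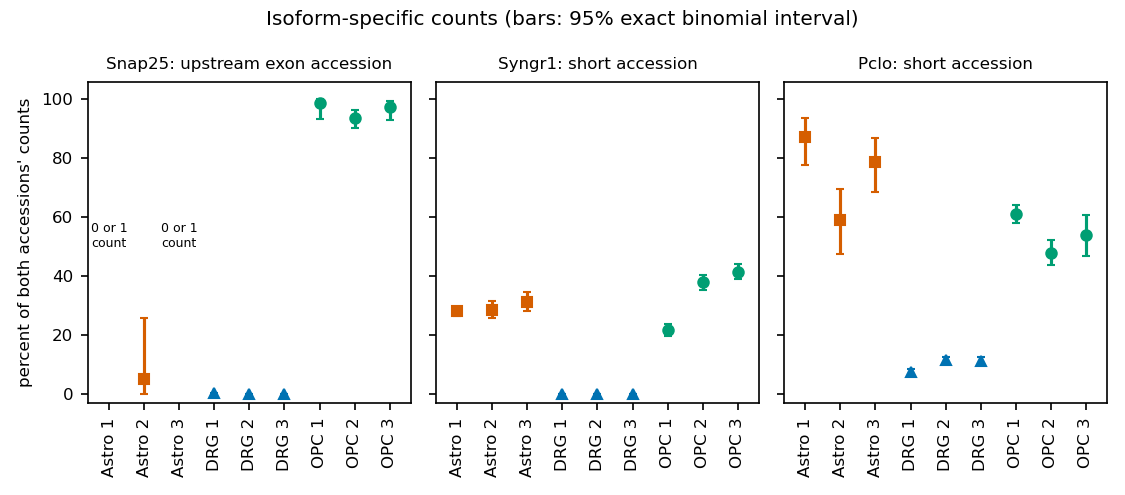
Share of the reads of 2 transcripts of 1 gene that fell on the first of them, in percent (vertical axis), for the upstream-exon form of Snap25, the short-end form of Syngr1 and the short form of Pclo; each point is 1 library and bars are 95% exact binomial intervals. For Snap25 the OPC libraries lie at 93.6 to 98.8% and the DRG libraries under 1%, while astrocytes have at most 19 reads; for Syngr1 and Pclo both glial types lie above all DRG libraries.

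Of the 6 plasma membrane SNAREs tested, 4 were higher in DRG than in OPC and 2, Stx4a and Snap29, were not called. Stx1a, the syntaxin of synapses, was at 197, 162 and 97.5 CPM in DRG, 8.16, 8.34 and 8.90 in OPC, and 2.33, 6.22 and 3.65 in astrocytes. It was 18.0-fold higher in DRG than in OPC (adjusted p = 3.49e-05). Its call of OPC above astrocytes (log2 1.06, SE 0.36, adjusted p = 0.0354) was lost on leaving out Astrocytes replicate 1 or 3, DRG replicate 2 or any 1 of the OPC libraries (adjusted p 0.0504 to 0.127). Stx4a, a syntaxin of constitutive exocytosis, was at 58.1, 112 and 86.7 CPM in DRG, 61.6, 50.9 and 58.9 in OPC, and 72.7, 93 and 69.2 in astrocytes. It was not called in any comparison (DRG against OPC, log2 0.59, SE 0.25, adjusted p = 0.0643), although the DRG excess passed without DRG replicate 1 (0.80, adjusted p = 0.0106) or OPC replicate 3 (0.86, adjusted p = 0.0342). Snap29, which serves endosomal and autophagic fusion, was at 135, 79.1 and 71.3 CPM in DRG, 86.0, 64.7 and 64.8 in OPC, and 93.1, 98.4 and 103 in astrocytes, with no call and with overlapping DRG and OPC groups.

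Stx2 and Stx3, syntaxins of broader use, had their lowest mean in OPC. Stx2 was at 16.1 ± 5.25 CPM in DRG, 3.19 ± 0.367 in OPC and 5.52 ± 1.30 in astrocytes, with DRG called above both. The step from OPC to astrocytes was not called (log2 −0.79, adjusted p = 0.0713) but passed without Astrocytes replicate 1 (−0.97, adjusted p = 0.0380) or DRG replicate 1 (−0.78, adjusted p = 0.0411). Stx3 was at 4.90 ± 1.23 CPM in DRG and 4.84 ± 0.606 in astrocytes, and was lower in OPC (1.40 ± 0.496) than in either, by 3.49-fold against DRG (adjusted p = 0.00254) and 3.45-fold against astrocytes (adjusted p = 0.00355). Snap23, the broadly used relative of Snap25, had 1, 1 and 2 reads in total in the OPC, DRG and astrocyte groups. Its 3 transcripts share nearly all of their bases, with 53 assignable to only 1 of them, so its level was not measured here.

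Among the vesicle SNAREs the neuronal and the broadly expressed member were arranged in opposite ways. Vamp2, the synaptobrevin of most synapses, was at 992, 1080 and 987 CPM in DRG, 187, 131 and 167 in OPC, and 150, 102 and 126 in astrocytes. It was 6.31-fold higher in DRG than in OPC (log2 2.66, SE 0.21, adjusted p = 1.35e-05), with overlapping glial groups. Vamp3, or cellubrevin (chromosome 4, 151047305 to 151057953), which serves recycling endosomes and exocytosis in many cells, was at 20.2, 11 and 14.6 CPM in DRG, 284, 251 and 268 in OPC, and 144, 220 and 211 in astrocytes. Every OPC library was above every other library. It was 17.6-fold lower in DRG than in OPC (log2 −4.13, SE 0.28, adjusted p = 6.75e-06), while OPC and astrocytes were not called apart (log2 0.48, SE 0.25, adjusted p = 0.127).

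Vamp4, of the trans-Golgi network and endosomes, was at 170 ± 39.0 CPM in DRG, 60.3 ± 13.6 in OPC and 55.7 ± 15.8 in astrocytes, called higher in DRG than in OPC (2.81-fold, adjusted p = 0.00128) and astrocytes (3.04-fold, adjusted p = 0.000863). Vamp8, or endobrevin, was at 2.30, 1.03 and 2.09 CPM in DRG, 0.335, 2.18 and 5.12 in OPC, and 57.2, 33.9 and 37.9 in astrocytes. OPC were 16.9-fold below astrocytes (adjusted p = 0.00282) and not called between DRG and OPC. Among OPC it was lowest in the library with the lowest microglia marker sum (18.8 CPM) and highest in that with the highest (215 CPM), and the astrocyte maximum was in the astrocyte library with the highest sum; their part in the result was not tested. Without Astrocytes replicate 1 and OPC replicate 3 the difference from OPC to astrocytes was log2 −4.97 (adjusted p = 0.00326), and without OPC replicate 3 alone −5.23. Isoform-specific reads of Vamp1, the other synaptobrevin, did not exceed 1.35 CPM. DRG were called below astrocytes (log2 −1.25, adjusted p = 0.0381), which was lost on leaving out any 1 of 5 libraries (OPC replicate 2, DRG replicates 2 and 3, and Astrocytes replicates 1 and 3, with adjusted p 0.0563 to 0.136). Vamp7, a broadly expressed VAMP, is listed at 0 in every library, which was not taken as a level; the cause was not settled.

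The genes that recycle SNAREs were all higher in DRG than in OPC. Nsf, the ATPase that takes SNARE complexes apart, was at 731 ± 66.5 CPM in DRG, 151 ± 6.13 in OPC and 59.5 ± 6.45 in astrocytes, 4.84-fold apart between DRG and OPC (adjusted p = 8.6e-06) and 2.54-fold between OPC and astrocytes (adjusted p = 0.000176). Napa, the broadly expressed adaptor alpha-SNAP, was at 380, 474 and 510 CPM in DRG, 177, 147 and 188 in OPC, and 123, 110 and 108 in astrocytes. It was 2.67-fold higher in DRG than in OPC (adjusted p = 0.000145). Its smaller step from OPC to astrocytes (log2 0.58, adjusted p = 0.0197) was lost without Astrocytes replicate 2 (adjusted p = 0.0573), Astrocytes replicate 3 (0.0745) or OPC replicate 3 (0.140), and with RLE size factors (0.0538). Napb, the brain form beta-SNAP, was at 556, 782 and 759 CPM in DRG, 12.2, 11.2 and 4.33 in OPC, and 8.28, 10.5 and 9.48 in astrocytes. All DRG libraries lay far above all glial ones, 75.5-fold against OPC (log2 6.24, SE 0.43, adjusted p = 7.14e-06), and the glial types were not called apart (log2 −0.02, adjusted p = 0.964).

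Of 9 vesicle membrane proteins tested, 6 were higher and 1 lower in DRG than in OPC. Syp, or synaptophysin, a main protein of synaptic vesicles, was at 1880, 1290 and 1140 CPM in DRG, 49.8, 46.3 and 53.5 in OPC, and 27.2, 11.9 and 14.5 in astrocytes. DRG were 28.8-fold above OPC (adjusted p = 1.16e-05), and OPC 2.79-fold above astrocytes (adjusted p = 0.00441). Its broadly expressed relative Sypl had 1.62, 2.72 and 4.0 CPM of isoform-specific reads in DRG, 3.84, 3.44 and 3.34 in OPC, and 9.14, 11.3 and 9.34 in astrocytes. OPC were below astrocytes (2.80-fold, adjusted p = 0.0066). It was not called between DRG and OPC, whose libraries overlapped. Such reads of Synpr, synaptoporin, reached 0.773 CPM at the most, and its gene sum was called in no comparison. Leaving out Astrocytes replicate 1 brought its OPC excess over astrocytes from log2 2.16 (adjusted p = 0.0584) to 3.17 (adjusted p = 0.0296). Its more abundant transcript had 20, 37 and 11 reads in OPC and 2, 1 and 2 in DRG, and the other 0, 1 and 0 in OPC and 10, 10 and 4 in DRG. The former, fitted alone, was lower in DRG than in OPC (log2 −3.38, adjusted p = 0.0129).

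The synaptogyrins showed the same contrast of neuronal and broad forms. Syngr3, a neuronal vesicle protein, was at 392, 398 and 383 CPM in DRG, 25.8, 24.1 and 30.3 in OPC, and 7.37, 11.6 and 8.74 in astrocytes, with every step called (14.6-fold between DRG and OPC, adjusted p = 2.7e-06; 2.89-fold between OPC and astrocytes, adjusted p = 0.000272). Syngr2, a form found outside the nervous system too, was at 7.85, 2.76 and 5.40 CPM in DRG, 35.9, 41.0 and 50 in OPC, and 78.8, 70.0 and 64.7 in astrocytes. It was 7.96-fold lower in DRG than in OPC (adjusted p = 0.000111). Its deficit in OPC relative to astrocytes (log2 −0.75, adjusted p = 0.0844) passed only without DRG replicate 1 (−0.74, adjusted p = 0.0444) or DRG replicate 2 (−0.74, adjusted p = 0.0246) among single libraries.

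Syngr1 has a pair of transcripts with different last coding exons, and their use differed between DRG neurons and glia. The stretches below are the coding parts of those last exons (exon 4 of 4 in each model, plus strand, GRCm38), chr15:80113166-80113255 for the short end and chr15:80115855-80116073 for the long end, in lower case throughout. They are shown because the counts of the transcripts that end in them differed between DRG neurons and glia.
Syngr1 short end: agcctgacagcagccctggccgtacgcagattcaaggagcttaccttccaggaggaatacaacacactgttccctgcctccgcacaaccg
Syngr1 long end: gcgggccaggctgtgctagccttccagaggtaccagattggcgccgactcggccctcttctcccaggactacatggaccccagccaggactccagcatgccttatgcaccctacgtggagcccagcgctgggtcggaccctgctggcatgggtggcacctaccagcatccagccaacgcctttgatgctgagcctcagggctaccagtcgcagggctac

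The short-end transcript of Syngr1 made up 0.0539, 0.0884 and 0.103% of the reads of both in DRG, 21.7, 37.9 and 41.6% in OPC, and 28.1, 28.6 and 31.3% in astrocytes. Both glial types lay above all DRG libraries (exact two-sided permutation test, p = 0.1 for each, adjusted p = 0.14). OPC and astrocytes overlapped (exact permutation test, p = 0.5). Fitted alone, the short-end transcript was 17.7-fold lower in DRG than in OPC (0.627 ± 0.256 against 11.3 ± 3.28 CPM, adjusted p = 0.000189). The long-end transcript was 32.4-fold higher in DRG (746 ± 103 against 23.0 ± 7.75 CPM, adjusted p = 3.7e-05). The sum of both was 21.8-fold higher in DRG than in OPC (747 ± 104 against 34.3 ± 7.00 CPM, adjusted p = 4.2e-05), again opposite to the short form. The long end has 3647 assignable bases and the short end 286. Divided by those lengths, the short end was at 0.683 to 1.29% in DRG, 78.0 to 90.1% in OPC and 83.3 to 85.3% in astrocytes. The 21.8-fold difference of the sum was not corrected for these lengths and carries their difference as well.

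The 3 genes of the SV2 family, transporter-like proteins that all synaptic vesicles carry in some form, differed in how far OPC held them. Sv2a, the widespread form, was at 121 ± 65.4 CPM in DRG (168, 149 and 46.6), 57.2 ± 8.04 in OPC and 16.7 ± 0.409 in astrocytes. Its call of DRG above OPC was marginal (log2 1.08, SE 0.39, adjusted p = 0.0383), the groups overlapped, and it was lost on leaving out DRG replicate 1 or 2, OPC replicate 1 or 2, or Astrocytes replicate 2 or 3 (adjusted p 0.0505 to 0.141). OPC were 3.43-fold above astrocytes (adjusted p = 0.00538). Sv2b had 8.66, 12.2 and 12.3 CPM of isoform-specific reads in DRG, 0, 0.0407 and 0.0722 in OPC, and 0.0188, 0.0475 and 0.0276 in astrocytes, 5 and 4 reads in total in the glial groups. It was 276-fold higher in DRG than in OPC (log2 8.11, SE 0.69, adjusted p = 1.84e-05), with log2 9.07 without OPC replicate 3. Sv2c was at 365, 748 and 666 CPM in DRG, 2.82, 19.1 and 9.55 in OPC, and 0.188, 1.80 and 0.774 in astrocytes. DRG were above OPC (log2 5.82, SE 0.89, adjusted p = 0.000474; 6.58 without OPC replicate 2), and OPC above astrocytes (log2 3.52, adjusted p = 0.00689; 2.77 without OPC replicate 2 and 4.51 without Astrocytes replicate 2). Both libraries with the highest glial Sv2c were those with the highest Nefh of their group (OPC replicate 2, 5.31 CPM; Astrocytes replicate 2, 9.66 CPM).

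Synapsins tether vesicles in the reserve pool. Isoform-specific reads of Syn1 came to 22.6 ± 5.26 CPM in DRG, 0.928 ± 0.0886 in OPC and 0.241 ± 0.0833 in astrocytes. Each step was called (24.2-fold, adjusted p = 1.23e-05, and 3.84-fold, adjusted p = 0.00164). The transcript that held all of these reads has only 38 assignable bases, so the level of Syn1 is poorly measured. Syn2 was at 217 ± 45.8 CPM in DRG, 59.3 ± 26.5 in OPC and 34.4 ± 3.45 in astrocytes, called between DRG and OPC (3.66-fold, adjusted p = 0.000792). Its step from OPC to astrocytes was not called (log2 0.78, adjusted p = 0.0571) but passed without OPC replicate 2 (1.04, adjusted p = 0.018) and with its most abundant transcript (1.10, adjusted p = 0.0154). Syn3 was at 27.3, 17.3 and 13.3 CPM in DRG, 12.9, 15.9 and 6.33 in OPC, and 6.49, 2.73 and 3.48 in astrocytes. DRG and OPC overlapped and were not called apart (log2 0.72, SE 0.45, adjusted p = 0.197). OPC were called above astrocytes (log2 1.46, adjusted p = 0.0255), a call lost without Astrocytes replicate 2 or 3 or OPC replicate 1 or 2 (adjusted p 0.0587 to 0.0900).

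Of the 6 regulators of fusion, 5 were higher in DRG than in OPC. Cplx1, a complexin that clamps and promotes fusion, was at 1230 ± 593 CPM in DRG, 66.1 ± 9.94 in OPC and 0.731 ± 0.855 in astrocytes. It was 18.5-fold higher in DRG than in OPC (adjusted p = 0.00178) and OPC were 91.4-fold above astrocytes (log2 6.51, SE 0.93, adjusted p = 0.000506). The latter was log2 5.92 without Astrocytes replicate 1 and 8.15 without Astrocytes replicate 2, whose 1.69 CPM was the highest of its group. Cplx2 was at 644, 169 and 101 CPM in DRG and 66.3 ± 8.59 in OPC, beside 68.6 ± 14.4 in astrocytes. The fold from OPC to DRG was 4.59 (log2 2.20, adjusted p = 0.0101), and log2 1.02 (adjusted p = 0.0126) without DRG replicate 1. Against astrocytes it was log2 2.15 and 0.98 without that library.

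Rph3a, rabphilin, an effector of Rab3 and Rab27 on vesicles, was at 105 ± 16.4 CPM in DRG, 45.1 ± 30.3 in OPC (79.6, 23.0 and 32.8) and 0.118 ± 0.0412 in astrocytes. OPC exceeded astrocytes 381-fold (log2 8.58, SE 0.61, adjusted p = 1.75e-05), with log2 7.89 without OPC replicate 1. The call of DRG above OPC (log2 1.22, adjusted p = 0.0286) was lost without DRG replicate 1 (adjusted p = 0.0779), DRG replicate 3 (0.0651) or OPC replicate 2 (0.0789), and was log2 1.91 without OPC replicate 1. Doc2a, a calcium sensor for spontaneous release, was at 14.6, 4.86 and 4.13 CPM in DRG, 7.18, 8.57 and 9.53 in OPC, and 4.98, 4.75 and 5.34 in astrocytes, with no call. Without DRG replicate 1 it was lower in DRG than in OPC (log2 −0.90, adjusted p = 0.0248) and OPC were above astrocytes (0.75, adjusted p = 0.0318). Doc2b was at 26.6, 2.48 and 1.06 CPM in DRG, 0.246, 0.204 and 0.168 in OPC, and 1.41, 0 and 0.166 in astrocytes. Its call of DRG above OPC (log2 5.58, SE 1.65, adjusted p = 0.0159) rested on DRG replicate 1, without which it was log2 3.09 (adjusted p = 0.0782). That call also ended without OPC replicate 2 (0.0576) or 3 (0.0520). The call of DRG above astrocytes (log2 4.21, adjusted p = 0.0368) was lost without any of 5 libraries, was 1.73 (adjusted p = 0.265) without DRG replicate 1 and rose to 6.93 without Astrocytes replicate 1.

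Stxbp2, or Munc18-2, the syntaxin partner of epithelial and blood cells, had an order of its own, at 15.7, 7.64 and 7.28 CPM in DRG, 2.17, 2.61 and 4.45 in OPC, and 81.8, 24.1 and 32.4 in astrocytes. OPC were 15-fold below astrocytes (log2 −3.91, adjusted p = 0.000579) and DRG 4.52-fold below them (log2 −2.18, adjusted p = 0.00622). Without Astrocytes replicate 1, the library with 2880 CPM of microglia markers, these were −3.20 (adjusted p = 0.00052) and −1.48 (adjusted p = 0.0154). Its DRG level was called above OPC (log2 1.73, adjusted p = 0.0189), which did not hold without DRG replicate 1 (adjusted p = 0.0732), OPC replicate 1 (0.0649) or OPC replicate 2 (0.0672), and was 2.34 without OPC replicate 3.

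Synaptotagmins are the calcium sensors of release, and 7 of the 8 tested were higher in DRG than in OPC. All 8 were higher in DRG than in astrocytes. Syt2, a fast sensor, was at 284, 574 and 511 CPM in DRG, 0.581, 1.77 and 0.602 in OPC, and 0.0752, 0.807 and 0.194 in astrocytes. It had the largest difference of any release gene between DRG and OPC in these libraries, 458-fold (log2 8.84, SE 0.86, adjusted p = 3.53e-05; 9.58 without OPC replicate 2). OPC and astrocytes were not called apart (log2 1.49, adjusted p = 0.126), but were when Astrocytes replicate 2 was left out (2.95, adjusted p = 0.0113). Syt9, another fast sensor, was at 331 ± 80.1 CPM in DRG against 59.8 ± 1.04 in OPC and 57.4 ± 6.82 in astrocytes (5.54-fold above OPC, adjusted p = 1.61e-05). Syt1, the main fast sensor of forebrain synapses, had 39 reads in DRG, 5 in OPC and 0 in astrocytes. Its 3 transcripts leave 82 assignable bases, so its level was not measured here.

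Syt4 and Syt11 do not bind calcium in the usual way and act in dense-core vesicle and endosomal traffic. Syt4 was at 940, 706 and 620 CPM in DRG, 6.66, 11.9 and 5.75 in OPC, and 0.357, 1.23 and 0.304 in astrocytes. Every step was called (93.2-fold from OPC to DRG, adjusted p = 2.13e-05; 12.8-fold from astrocytes to OPC, adjusted p = 0.000524), with log2 4.59 in place of 3.68 for the latter without Astrocytes replicate 2. Syt11 was at 2000, 2150 and 2620 CPM in DRG, 897, 524 and 572 in OPC, and 521, 777 and 919 in astrocytes, 3.40-fold higher in DRG than in OPC (adjusted p = 0.000686), with overlapping glial groups.

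Syt7, a slow, high-affinity sensor that also acts in lysosome exocytosis, had the highest OPC level relative to DRG among the 8 synaptotagmins tested in the list. Its isoform-specific reads came to 12.6, 14.5 and 11 CPM in DRG, 4.18, 7.75 and 9.60 in OPC, and 0.0376, 0.142 and 0.0829 in astrocytes. OPC exceeded astrocytes 81.1-fold (log2 6.34, SE 0.55, adjusted p = 4.03e-05). DRG and OPC did not overlap but were not called apart (log2 0.82, SE 0.41, adjusted p = 0.109), and passed without OPC replicate 3 (1.33, adjusted p = 0.0402). Syt5 was at 51.5 ± 24 CPM in DRG, 2.37 ± 0.867 in OPC and 13.7 ± 12.3 in astrocytes (27.5, 4.16 and 9.34), and OPC were called below astrocytes (log2 −2.53, adjusted p = 0.012; −1.51, adjusted p = 0.0337, without Astrocytes replicate 1). Its excess in DRG over astrocytes (log2 1.91, adjusted p = 0.0297) was 2.93 without Astrocytes replicate 1 and was lost without Astrocytes replicate 2 or 3 or DRG replicate 1 or 2 (adjusted p 0.0546 to 0.0993). Syt3, whose models leave 0 assignable bases, and Syt6 had few isoform-specific reads, at 0.701 ± 0.196 and 1.73 ± 0.558 CPM in DRG and 0.0315 ± 0.0370 and 0.491 ± 0.228 in OPC. Both were called higher in DRG than in OPC (log2 4.42, adjusted p = 0.00187, and 1.81, adjusted p = 0.0212). The Syt3 value was 3.82 without OPC replicate 2 and 5.91 without OPC replicate 3, and the Syt6 call was lost without DRG replicate 2 or 3 or OPC replicate 1 (adjusted p 0.0573 to 0.0761). Syt6 in OPC was above astrocytes (log2 2.86, adjusted p = 0.00658; 4.12 without Astrocytes replicate 1).

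Of 9 active zone and priming genes, 7 were called higher in OPC than in astrocytes and 0 lower. Over all genes tested, 26.3% were higher and 25.5% lower in that comparison. Of these 7 calls, those of Rims1 and Unc13c were weak, as given below. Summed, the 9 active zone and priming genes were at 17.3 ± 3.73 CPM in astrocytes, 154 ± 7.03 CPM in OPC and 1050 ± 211 CPM in DRG. Unc13a, or Munc13-1, the main priming factor of glutamate release, was at 271, 519 and 377 CPM in DRG, 46.0, 54 and 54.9 in OPC, and 4.19, 10 and 6.25 in astrocytes, 7.54-fold higher in DRG than in OPC (adjusted p = 0.000116), with OPC 7.57-fold above astrocytes (adjusted p = 0.00021). Unc13b had 1.56, 0.589 and 1.03 CPM of isoform-specific reads in DRG, 0.827, 1.32 and 1.01 in OPC, and 0.715, 2.54 and 2.02 in astrocytes, with all groups overlapping and no call. By the GENCODE vM21 models its 2 transcripts differ in only 3 bases that a read could be assigned to, so this level, and what rests on it, is poorly measured. Unc13c was at 56.2 ± 26.2 CPM in DRG, 2.74 ± 1.92 in OPC (4.81, 2.40 and 1.01) and 0.826 ± 0.0228 in astrocytes. Its call of OPC above astrocytes (log2 1.73, adjusted p = 0.0242) was lost without OPC replicate 1 (1.06, adjusted p = 0.0937) and without each single astrocyte library (adjusted p 0.0526 to 0.0670).

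Bsn and Pclo encode Bassoon and Piccolo, the giant scaffolds of the active zone. Bsn was at 345 ± 64.4 CPM in DRG, 55 ± 3.15 in OPC and 3.36 ± 0.833 in astrocytes. It was 6.27-fold higher in DRG than in OPC (adjusted p = 1.65e-05), and OPC 16.3-fold above astrocytes (log2 4.03, SE 0.24, adjusted p = 6.9e-06). Pclo had 78.3 ± 5.57 CPM of isoform-specific reads in DRG, 12.8 ± 8.74 in OPC (22.2, 11.2 and 4.91) and 1.93 ± 0.443 in astrocytes, with both steps called (log2 2.62, adjusted p = 0.00123, and 2.73, adjusted p = 0.00156). Without OPC replicate 1 they were 3.27 and 2.07. The shorter of its 2 transcripts made up 7.40 to 11.6% of these reads in DRG, 47.9 to 61.0% in OPC and 59.0 to 87.2% in astrocytes. DRG did not overlap with either glial type (exact two-sided permutation test, p = 0.1, adjusted p = 0.14). The shorter transcript has 1967 assignable bases and the longer 5205. Divided by those lengths, the shorter was at 17.4 to 25.8% in DRG, 70.9 to 80.5% in OPC and 79.2 to 94.7% in astrocytes. The steps of the Pclo sum were not corrected for these lengths and carry their difference as well. Fitted alone, the shorter transcript was not called between DRG and OPC (7.99 ± 2.30 against 7.17 ± 5.65 CPM, log2 0.16, adjusted p = 0.82, and log2 0.99 without OPC replicate 1). The longer one was 12.6-fold higher in DRG (70.3 ± 3.51 against 5.58 ± 3.20 CPM, adjusted p = 0.00045). Both were above astrocytes in OPC, the shorter by log2 2.32 (adjusted p = 0.00842; 1.49 without OPC replicate 1) and the longer by 3.50 (adjusted p = 0.00111).

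Of the RIM family, the scaffolds that tie vesicles to calcium channels, Rims4 was the only release gene called higher in OPC than in both other groups, which 14.2% of all genes tested were. Rims4 (chromosome 2, 163859756 to 163918973) and Rims3 encode short forms that hold little more than the last C2 domain. Rims4 was at 2.57, 1.66 and 1.16 CPM in DRG, 8.96, 15.1 and 16.3 in OPC, and 0.0188, 0.0475 and 0.138 in astrocytes, with no overlap between any of the groups. It was 7.49-fold lower in DRG than in OPC (log2 −2.91, SE 0.52, adjusted p = 0.00117). OPC were 202-fold above astrocytes (log2 7.66, SE 0.69, adjusted p = 4.84e-05), with log2 8.59 when Astrocytes replicate 3 was left out. DRG were above astrocytes by log2 4.75 (5.68 without Astrocytes replicate 3). Rims3 was at 173 ± 38.1 CPM in DRG, 16.1 ± 5.03 in OPC and 1.51 ± 0.339 in astrocytes, 10.7-fold and 10.6-fold apart in the steps from DRG to OPC (adjusted p = 2.54e-05) and from OPC to astrocytes (adjusted p = 5.75e-05). The long forms gave few isoform-specific reads. Rims1 was at 2.27, 2.44 and 1.96 CPM in DRG and 0.0894, 0.0611 and 0.0241 in OPC, 8 reads in all, with 0 counts in every astrocyte library. It was 36.1-fold higher in DRG than in OPC (adjusted p = 0.00016). Against a floor of 3 counts over the astrocyte group, it was at least 98.0-fold higher in DRG and at least 2.59-fold higher in OPC than in astrocytes, and the OPC call was lost with its most abundant transcript alone. Rims2 was at 0.974 ± 0.145, 0.905 ± 0.118 and 1.06 ± 0.215 CPM in DRG, OPC and astrocytes, with no call.

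Of the 3 genes of vesicle retrieval, 2 were called higher in OPC than in astrocytes. Sh3gl2 (chromosome 4, 85205456 to 85389380) encodes endophilin A1, which bends the membrane and recruits synaptojanin and dynamin. It was at 121, 137 and 101 CPM in DRG, 108, 95.8 and 111 in OPC, and 1.37, 1.80 and 1.58 in astrocytes. OPC and DRG overlapped (log2 0.19, SE 0.17, adjusted p = 0.372), and OPC exceeded astrocytes 66.2-fold (log2 6.05, SE 0.22, adjusted p = 3.46e-06). Leaving out Astrocytes replicate 1 and OPC replicate 3 together put DRG above OPC by log2 0.48 (adjusted p = 0.0472). Dnm1, the neuronal dynamin that cuts vesicles from the membrane, was at 917 ± 55.1 CPM in DRG, 36.4 ± 3.82 in OPC and 2.24 ± 0.818 in astrocytes, 25.2-fold above OPC (adjusted p = 3.55e-06), with OPC 16.3-fold above astrocytes (adjusted p = 1.22e-05). Synj1, synaptojanin, which strips the clathrin coat by its lipid phosphatase, had 3.11, 12.4 and 13.6 CPM of isoform-specific reads in DRG, 2.19 ± 0.554 in OPC and 1.21 ± 0.0560 in astrocytes. It was higher in DRG than in OPC (4.44-fold, adjusted p = 0.0059). OPC and astrocytes were not called apart (log2 0.86, adjusted p = 0.189) except without DRG replicate 1 (0.87, adjusted p = 0.0365).

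Ratios of a neuronal to a broadly expressed family member were taken within each library, so that library scaling cancels, and compared between groups as log2 of CPM + 0.5. Of 8 pairs, 6 could be used, since Snap23 and Syt1 were not measured. The Vamp2/Vamp3 ratio was 49.1, 98.0 and 67.6 in DRG, 0.657, 0.523 and 0.621 in OPC, and 1.04, 0.464 and 0.596 in astrocytes. DRG thus had more Vamp2 reads in every library and OPC more Vamp3 reads. The Syngr3/Syngr2 ratio was 49.9, 144 and 70.9 in DRG, 0.717, 0.588 and 0.606 in OPC, and 0.0936, 0.166 and 0.135 in astrocytes. The Unc13a/Unc13b ratio was 174, 881 and 365 in DRG, 55.6, 40.8 and 54.3 in OPC, and 5.87, 3.95 and 3.10 in astrocytes. Unc13b passed the read filter but has only 3 assignable bases, so this ratio is poorly measured and mostly follows Unc13a.

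The remaining ratios repeated the order with OPC in between, save for the SNAP adaptors. Syp/Sypl stood at 1160, 474 and 286 in DRG, 13.0, 13.4 and 16.0 in OPC, and 2.97, 1.06 and 1.55 in astrocytes. Stx1a/Stx4a stood at 3.39, 1.44 and 1.12 in DRG, 0.133, 0.164 and 0.151 in OPC, and 0.0321, 0.0669 and 0.0528 in astrocytes. Napb/Napa stood at 1.46, 1.65 and 1.49 in DRG, 0.0691, 0.0766 and 0.0230 in OPC, and 0.0671, 0.0953 and 0.0876 in astrocytes. In 16 of 18 comparisons the groups did not overlap, each with the smallest p that 3 against 3 libraries allow (exact two-sided permutation test, p = 0.1, adjusted p = 0.113). The other 2 were OPC against astrocytes for Vamp2/Vamp3 (exact p = 0.9) and Napb/Napa (exact p = 0.3), whose groups overlapped.

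**Figure D4:**
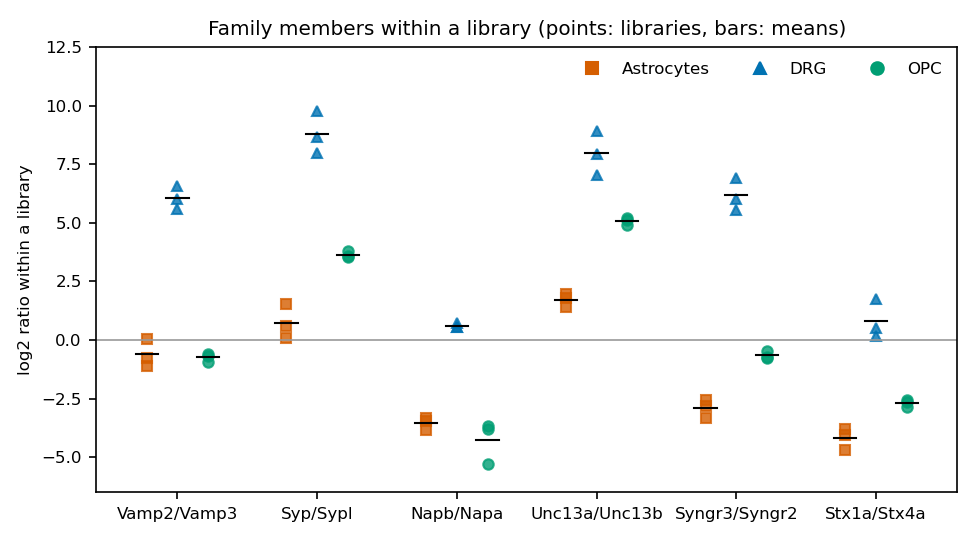
Log2 ratio of 2 family members within a library (vertical axis, CPM + 0.5), for 6 pairs; each point is 1 library and each bar the mean of 3. DRG libraries lie above both glial groups in every pair; OPC lie between DRG and astrocytes for Syp/Sypl, Unc13a/Unc13b, Syngr3/Syngr2 and Stx1a/Stx4a, and overlap with astrocytes for Vamp2/Vamp3 and Napb/Napa. Unc13b, and with it the Unc13a/Unc13b ratio, is poorly measured.

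A further list of 81 genes of the same pathway (other syntaxins and SNAREs, synaptotagmins, complexins, liprins and ELKS proteins, clathrin adaptors and coat, endocytic proteins and the exocyst) had 72 genes tested. In DRG against OPC, 34 were higher and 11 lower (47.2% and 15.3%, median log2 0.52), beside 28.4% and 31.1% of all genes tested. In OPC against astrocytes, 26 were higher and 16 lower (36.1% and 22.2%, median 0.20), beside 26.3% and 25.5%. In DRG against astrocytes, 38 were higher and 10 lower (52.8% and 13.9%, median 0.85), beside 27.4% and 32.8%. The largest excesses of DRG over OPC were in Clta, a clathrin light chain (30.9 ± 3.03 against 0.296 ± 0.0462 CPM of isoform-specific reads from 5 transcripts, adjusted p = 4e-05), in Ppfia1, a liprin (1.95 ± 0.246 against 0.0315 ± 0.0370 CPM of such reads, adjusted p = 0.000165), and in Ppfia4, another liprin (125 ± 22.4 against 2.83 ± 1.30 CPM, adjusted p = 0.000929). The Ppfia1 value was log2 5.89, 5.29 without OPC replicate 2 and 7.38 without OPC replicate 3. Above DRG in OPC were Stxbp6, or amisyn (20.2 ± 7.43 against 2.92 ± 1.75 CPM, adjusted p = 0.00107), Scamp2, a carrier membrane protein of general traffic (105 ± 22.5 against 15.7 ± 1.53 CPM, adjusted p = 2.86e-05), and Dnm2, the dynamin of nearly every cell (19.8 ± 2.65 against 3.48 ± 0.425 CPM of isoform-specific reads, adjusted p = 4.82e-05).

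Between OPC and astrocytes the largest excess in OPC was that of Syt16, a synaptotagmin relative that does not bind calcium (37.7 ± 4.81 against 0.317 ± 0.216 CPM, 122-fold, adjusted p = 0.000761). Next came Sh3gl3, endophilin A3 (7.67 ± 1.20 against 0.249 ± 0.0777 CPM of isoform-specific reads, adjusted p = 5.35e-05), and Ap2a1, a subunit of the clathrin adaptor AP-2 (2.08 ± 0.751 against 0.112 ± 0.0477 CPM of such reads, adjusted p = 0.000114). Lower in OPC were Vamp5 (0.0821 ± 0.0378 against 9.77 ± 2.91 CPM of isoform-specific reads, adjusted p = 0.00011), Syt15 (0.0966 ± 0.0522 against 3.57 ± 2.42 CPM of such reads, log2 −5.17, adjusted p = 0.00091; −4.49 without Astrocytes replicate 2) and Syt17 (0.918 ± 0.443 against 18.5 ± 5.39 CPM, log2 −4.33, adjusted p = 0.00213; −4.94 without OPC replicate 3). Against astrocytes, DRG had the largest excesses in Clta, Bin1 (amphiphysin II) and Dnm3, all from isoform-specific reads only, which need not follow the level of the whole gene. Clta was at 30.9 ± 3.03 against 0.0317 ± 0.0548 CPM, with 4 reads in astrocytes (log2 9.84, adjusted p = 1.4e-05). Its log2 value was 9.17 without Astrocytes replicate 1 and 13.36 without Astrocytes replicate 2. Bin1 was at 76.4 ± 18.1 against 0.190 ± 0.147 CPM (log2 8.65, adjusted p = 4.5e-06), with log2 9.50 without Astrocytes replicate 2. Dnm3 was at 309 ± 120 against 1.54 ± 0.455 CPM (adjusted p = 8.69e-05). Lower in DRG than in astrocytes were Vamp5 (log2 −5.12, adjusted p = 0.000174; −6.19 without DRG replicate 3), Stxbp6 (log2 −4.66, adjusted p = 8.72e-05) and Unc13d, the Munc13 of blood cells (log2 −3.54, adjusted p = 0.000173).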

How the data were processed

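Poly(A) RNA of 9 cultures was sequenced with a stranded kit, per the labels' protocols. The authors deposited raw read counts per RefSeq transcript; per the submitters' processing notes the tools were TopHat2 and HTSeq and the build mm10. Their versions, the counting mode and the strand option are not given in the sources used here. Reads listed per library numbered 56683071 to 93305766. Of 33787 transcripts, 33315 took gene names from RefSeq (GRCm38.p6), 193 from GENCODE vM21, and 279 kept their identifiers. Counts were summed per gene, leaving out the 5 lines of unassigned totals. Genes were tested with edgeR 4.0.16 (R 4.3.3; TMM, filterByExpr with minimum count 10, quasi-likelihood F-test, all 9 libraries, 6 residual degrees of freedom), with Benjamini-Hochberg adjustment over 14848 genes. SE is the log2 difference divided by the square root of F. Ratios used a pseudocount of 0.5 CPM and SciPy 1.17.1. Intervals and floors cover counting error only. The script was tested on simulated data.

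The members and lists were chosen with earlier results of these data known. Values per library are given for genes of the ratio pairs, those with an OPC level of at least 50% of DRG, those higher in OPC than in both other groups, and the 8 with the largest difference between DRG and OPC. Of the further list, the 3 largest called differences without overlap are named per direction and comparison. Gene coordinates are from the RefSeq table, exon sequences from GENCODE vM21. Fits per transcript and isoform shares were chosen after seeing the data. Alternatives were other scalings, filters, tools (DESeq2 1.42.0), single transcripts and left-out libraries.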

Additional observations from a re-analysis of the deposited data

How the results depend on the processing

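Under 18 alternatives (other scalings, filters, tools, single transcripts and left-out libraries), 114 of 156 comparisons of release genes were called at first; 14 of these calls were lost and 14 further ones gained in at least 1 alternative, and 0 called ones changed sign. Of those not called, 18 changed sign, with log2 values of at most 1.38. With only the compared libraries fitted, 8 release genes in place of 5 were lower in OPC than in astrocytes, and 16 further pathway genes in place of 26 were higher. Further pathway genes lower in OPC than in astrocytes numbered 9 to 17 when 1 library was left out (9 without OPC replicate 1, 10 without Astrocytes replicate 1), against 16. With library size alone, 18 in place of 10 were lower in DRG than in astrocytes. The number of release genes with an OPC level of at least 50% of DRG ran from 11 to 13. The labels number the replicates alike in each group but do not say that the numbers pair cultures. Deviations from the group mean correlated over genes at −0.036 to 0.128 for same-numbered libraries and −0.13 to 0.078 for others. With 3 libraries per group this cannot settle whether the numbers pair cultures, and the main test used no pairing. With the replicate number as a block, 36 release genes were higher in DRG than in OPC and 3 lower, 24 higher in OPC than in astrocytes and 6 lower, and 39 higher in DRG than in astrocytes and 6 lower. That block ended the calls of Sv2a between DRG and OPC and of Unc13c between OPC and astrocytes, and added calls between OPC and astrocytes for Stx2 (log2 −0.76, adjusted p = 0.0449) and Syt2 (log2 1.61, adjusted p = 0.0269). Snap23 and Syt1 have few assignable bases and Vamp7 is listed at 0, so none of them was measured. Low isoform-specific counts limit Rims1, Sv2b and Syt3 in glia.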
